A study of Caenorhabditis elegans with 6 samples.

Results

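The iCLIP reads described here fall on 10 mRNAs of the DNA replication machinery in early embryos of the nematode Caenorhabditis elegans. The genes were chosen by symbol, with earlier results of these data known. They encode the 6 MCM helicase subunits (mcm-2 to mcm-7), licensing factor CDC-6, sliding clamp PCN-1 and both ribonucleotide reductase subunits (rnr-1 and rnr-2). All 10 were found among the 46646 genes of the count table, of which 9268 had a read in any library. iCLIP (individual-nucleotide resolution UV crosslinking and immunoprecipitation) freezes contacts between a protein and RNA with ultraviolet light, pulls the protein down with an antibody and sequences the attached RNA fragments. There were 3 groups with 2 libraries each. Embryos of the MEG-3::GFP group carried GFP on the meg-3 gene at its own locus, embryos of the PGL-1::GFP group carried GFP on pgl-1 at its own locus, and embryos of the GFP group expressed untagged GFP from a transgene under the pie-1 promoter in an unc-119(ed3) background. All were grown at 20 °C, irradiated and precipitated through GFP. MEG-3 and PGL-1 are proteins of the P granules, the RNA-rich germ granules of the worm, and the libraries address which mRNAs each protein touches. GFP alone gives the background of the procedure. Each tagged group was made from a single edited line, and whole embryos were used, so fewer cells with a transcript and less of it per cell cannot be told apart.

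As background, an embryo that divides fast has to copy its genome in every short cycle, and it starts with mRNAs that the mother put into the egg. CDC-6 helps load the MCM ring onto replication origins, the ring later opens the double helix as the replicative helicase, the PCN-1 clamp holds polymerases on the template, and ribonucleotide reductase makes the deoxynucleotides they use. P granules hold maternal mRNAs, many of them not translated at the time, and pass into the germline founder cell.

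The libraries differed widely in depth, and values from the shallow libraries rest on few reads. Replicates 1 and 2 of MEG-3::GFP held 225609 and 280007 reads, those of PGL-1::GFP 21180 and 92593, and those of GFP 26531 and 14040. A count of 0 therefore allowed in the MEG-3::GFP libraries up to 13.3 and 10.7 CPM (the reads on a gene scaled to a library total of 1000000 reads), up to 141.6 and 32.4 CPM in the PGL-1::GFP libraries, and up to 113 and 214 CPM in the GFP libraries, taking 3 reads as a one-sided limit. The 95% Poisson intervals given below are two-sided, so that for a count of 0 they end somewhat higher than this limit. Both cover counting error only, not the spread between replicates. Maternal early-embryo markers (7 genes, among them pos-1 and mex-5) were read in every library (5 to 7 of them in each), at 7043 and 10300 CPM together with MEG-3::GFP, 9348 and 3737 CPM with PGL-1::GFP, and 15454 and 2350 CPM with GFP alone. The 4 sperm markers were at 0 throughout. The 7 markers of later or adult soma summed to 4.43 and 25.0 CPM with MEG-3::GFP, 0 and 281 CPM with PGL-1::GFP, and 339 and 1994 CPM with GFP alone. Of the 28 reads behind the last value, 27 were on unc-54, a muscle myosin gene, and 1 on myo-3, with elt-2, vit-2, vit-6, col-19 and hlh-1 at 0. The part of these reads in the results was not tested. The sample titles give the GFP libraries a name stem of their own, so any difference tied to it and the GFP group cannot be told apart. The MEG-3::GFP libraries are described as independent experiments, but no source used here says that the libraries of each group came from separate cultures, so p-values measure only the spread between these libraries.

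Reads on the replication mRNAs were a small share of every library. Together the 10 genes took 0.363% (95% Wilson interval 0.339 to 0.389) and 0.485% (0.460 to 0.511) of the reads with MEG-3::GFP, 0.255% (0.195 to 0.332) and 0.427% (0.387 to 0.471) with PGL-1::GFP, and 0.498% (0.420 to 0.590) and 0.420% (0.326 to 0.542) with GFP alone. The group means were 0.424% ± 0.0862 with MEG-3::GFP, 0.341% ± 0.121 with PGL-1::GFP and 0.459% ± 0.0547 with GFP alone (SD, n = 2 each). The libraries of all 3 groups overlapped, so the shares differed by no more than the spread between replicates. With 2 libraries against 2, the exact two-sided permutation test cannot go below p = 0.333, so no test of these shares was made. Without mcm-7 or rnr-2, the MEG-3::GFP mean was 0.321% or 0.309%, and the GFP mean was 0.369% or 0.393%.

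What changed from library to library was which gene carried the reads. The most-read gene was rnr-2 in MEG-3::GFP replicate 1 (322 of 819 reads, 39.3%) and in PGL-1::GFP replicate 1 (26 of 54, 48.1%). It was mcm-7 in MEG-3::GFP replicate 2 (400 of 1358, 29.5%), in PGL-1::GFP replicate 2 (77 of 395, 19.5%) and in GFP replicate 1 (46 of 132, 34.8%). In GFP replicate 2 it was mcm-6, with 29 of 59 reads (49.2%), followed by mcm-2 with 15 (25.4%). The MCM genes together took 0.159% and 0.307% of MEG-3::GFP reads, 0.127% and 0.256% of PGL-1::GFP reads, and 0.286% and 0.349% of GFP reads. Both reductase genes took 0.155% and 0.130% of MEG-3::GFP reads, 0.127% and 0.0983% of PGL-1::GFP reads, and 0.181% and 0.0712% of GFP reads.

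**Figure D1:**
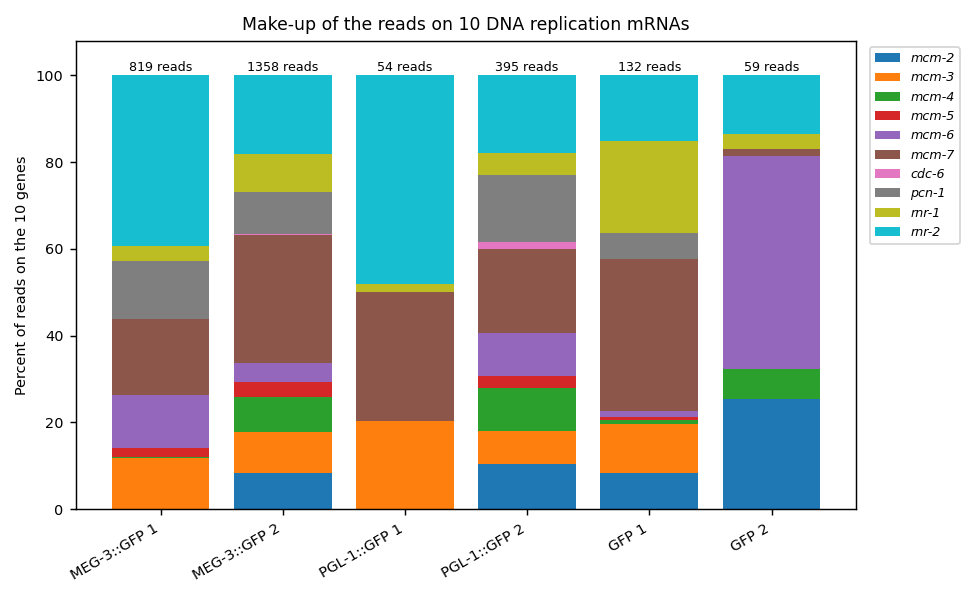
Share of each gene (vertical axis, percent of the reads on the 10 genes) in each library (horizontal axis), with the number of reads above each bar. The rnr-2 and mcm-7 segments are present in all 6 libraries, while mcm-6 fills 49.2% of GFP replicate 2.

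Of the MCM helicase genes, mcm-7 (chromosome V, 4347166 to 4349768, WBcel235) had the most reads in every library but GFP replicate 2, where mcm-6 and mcm-2 led. It had 143 and 400 reads with MEG-3::GFP, 16 and 77 with PGL-1::GFP, and 46 and 1 with GFP alone. In CPM these were 634 and 1429 with MEG-3::GFP, 755 and 832 with PGL-1::GFP, and 1734 and 71.2 with GFP alone. The GFP libraries lay on either side of all others and differed by 24.3 fold, so no group stood apart from another. The means were 1031 ± 562 CPM with MEG-3::GFP, 794 ± 53.9 CPM with PGL-1::GFP and 903 ± 1176 CPM with GFP alone (SD, n = 2 each).

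The reads of mcm-3 (V, 15056719 to 15059599) were nearly even over the deeper libraries. There were 96 and 130 with MEG-3::GFP, 11 and 30 with PGL-1::GFP, and 15 and 0 with GFP alone, or 426 and 464 CPM, 519 and 324 CPM, and 565 and 0 CPM. The MEG-3::GFP replicates were 1.09 fold apart, against a median of 2.84 fold over the 2907 genes with reads in both of those libraries. GFP replicate 1 was the highest library and GFP replicate 2 the lowest.

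The gene mcm-6 (III, 9794367 to 9798644) had 100 and 60 reads with MEG-3::GFP, 0 and 39 with PGL-1::GFP, and 2 and 29 with GFP alone. In CPM it stood at 443 and 214 with MEG-3::GFP, 0 and 421 with PGL-1::GFP, and 75.4 and 2066 with GFP alone. GFP replicate 2 was far above every other library (95% Poisson interval 1383 to 2966 CPM) and GFP replicate 1 was below both MEG-3::GFP libraries. This made mcm-6 the 48th most-read gene of GFP replicate 2, while it ranked 716 and 1227 in the MEG-3::GFP libraries. The gene srxa-10 lies within the span of mcm-6 and had no read in any library.

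The other subunits were uneven between replicates or low. On mcm-2 (II, 12001517 to 12006625) there were 0 and 112 reads with MEG-3::GFP, 0 and 41 with PGL-1::GFP, and 11 and 15 with GFP alone (0 and 400 CPM, 0 and 443 CPM, and 415 and 1068 CPM). On mcm-4 (I, 2318291 to 2321817) there were 2 and 109 reads with MEG-3::GFP, 0 and 39 with PGL-1::GFP, and 1 and 4 with GFP alone (8.86 and 389 CPM, 0 and 421 CPM, and 37.7 and 285 CPM). Both genes were therefore read at depth in replicate 2 of the tagged proteins and at or near 0 in replicate 1. For mcm-2 in MEG-3::GFP replicate 1 the interval ended at 16.4 CPM, well under the 329 CPM at which that of replicate 2 began, so counting error does not cover the gap. The replicates of mcm-4 with MEG-3::GFP were 43.9 fold apart, more than for 96.9% of genes read in both. Of the 687 genes with at least 100 reads in MEG-3::GFP replicate 2, 66 (9.61%) had at most 3 in replicate 1, and 2 of the 7 replication genes at that depth, mcm-2 and mcm-4, were among them. The neighbouring gene ekl-7 overlaps mcm-4 by 15 bases and had 29 reads itself in MEG-3::GFP replicate 2. The lowest subunit in reads, mcm-5 (III, 4288264 to 4291266), had 18 and 48 reads with MEG-3::GFP, 0 and 11 with PGL-1::GFP, and 1 and 0 with GFP alone (79.8 and 171 CPM, 0 and 119 CPM, and 37.7 and 0 CPM). Its counting intervals overlapped in all 4 pairings of a MEG-3::GFP with a GFP library, so a difference was not detectable at this depth.

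The licensing factor cdc-6 (I, 4268070 to 4270287) was almost unread. It had 0 and 2 reads with MEG-3::GFP, 0 and 6 with PGL-1::GFP, and 0 and 0 with GFP alone. The value of PGL-1::GFP replicate 2 was 64.8 CPM (95% Poisson interval 23.8 to 141), which lies under the limit that a count of 0 allows in either GFP library.

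The clamp gene pcn-1 (IV, 4047937 to 4049448) was the most even of all with MEG-3::GFP. Its 110 and 133 reads there gave 488 and 475 CPM, 1.03 fold apart, and only 1.17% of genes read in both libraries were closer. PGL-1::GFP had 0 and 61 reads (0 and 659 CPM), and GFP had 8 and 0 reads (302 and 0 CPM). Both MEG-3::GFP libraries were thus above both GFP libraries. Their counting intervals were clear of that of GFP replicate 2 but overlapped that of GFP replicate 1 (130 to 594 CPM). The highest library was PGL-1::GFP replicate 2, beside a PGL-1::GFP replicate with no read.

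The reductase subunits differed from each other. The small subunit, rnr-2 (III, 4093308 to 4094921), had 322 and 246 reads with MEG-3::GFP, 26 and 71 with PGL-1::GFP, and 20 and 8 with GFP alone. In CPM these were 1427 and 879 with MEG-3::GFP, 1228 and 767 with PGL-1::GFP, and 754 and 570 with GFP alone. It was the sole gene of the 10 with at least 8 reads in every library. Of the 10, it alone had both libraries of both tagged proteins above both GFP libraries. The share of all genes with that pattern was not counted, so it does not set rnr-2 apart. Taken singly, 28.6% of the 2033 genes tested by edgeR lay above with MEG-3::GFP and 6.74% with PGL-1::GFP. The margins were small: 767 CPM in PGL-1::GFP replicate 2 against 754 CPM in GFP replicate 1, and the counting intervals overlapped in all 4 PGL-1::GFP to GFP pairings and in 2 of the 4 MEG-3::GFP to GFP pairings. The large subunit, rnr-1 (III, 9225375 to 9228250), had 28 and 118 reads with MEG-3::GFP, 1 and 20 with PGL-1::GFP, and 28 and 2 with GFP alone (124 and 421 CPM, 47.2 and 216 CPM, and 1055 and 142.45 CPM). GFP replicate 1 was the highest for rnr-1, above both MEG-3::GFP libraries, and GFP replicate 2 lay between those. A snoRNA gene, T23G5.7, lies in the span of rnr-1 and had no read.

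**Figure D2:**
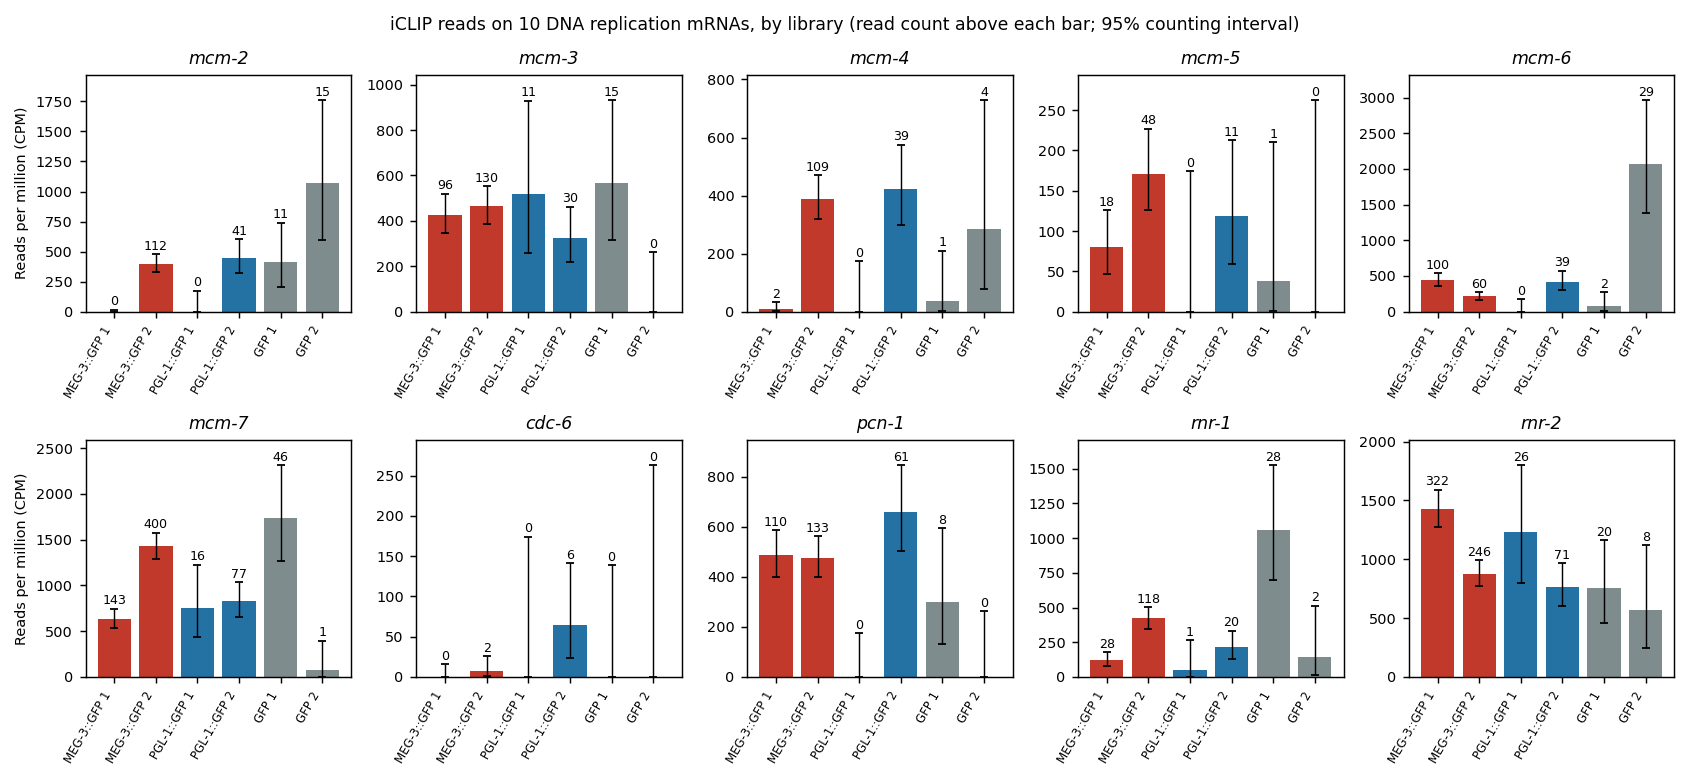
CPM of each of the 10 genes (vertical axis, a scale for each gene, from 0) in the 6 libraries, with 95% Poisson intervals for counting error as bars and read counts above. Of the 10, only rnr-2 has all 4 libraries of tagged proteins above both GFP libraries. The share of all genes with that pattern was not counted. GFP replicate 2 is the highest library for mcm-6 (29 reads) and mcm-2 (15 reads).

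Over the 10 genes, the highest CPM lay in a GFP library for 5 (3 in replicate 1, 2 in replicate 2), in PGL-1::GFP replicate 2 for 3, and in a MEG-3::GFP library for 2. The same count was not made over all genes, so it does not set these 10 apart. A single read weighed 37.7 and 71.2 CPM in replicates 1 and 2 of GFP, against 4.43 and 3.57 for MEG-3::GFP. The part of depth in this count was not tested. Levels of different genes can be set side by side only per length, and the one length at hand was that of the whole gene with its introns. Per kilobase of gene, the MEG-3::GFP means ran from 714 ± 240 CPM for rnr-2, over 396 ± 216 for mcm-7, 318 ± 5.88 for pcn-1 and 154 ± 9.51 for mcm-3, to 94.8 ± 73.1 for rnr-1, 76.8 ± 37.8 for mcm-6, 56.4 ± 76.3 for mcm-4, 41.8 ± 21.6 for mcm-5, 39.1 ± 55.4 for mcm-2 and 1.61 ± 2.28 for cdc-6 (SD, n = 2 each). Among neighbours in this order the replicates were free of overlap only between pcn-1 and mcm-3 and between mcm-3 and rnr-1. The other neighbours did not differ beyond their spread.

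The study's methods call a transcript bound by the tagged protein when it has 60 reads or more, with GFP libraries as the guide to that number. Of the 10 genes, 5 reached 60 reads in both MEG-3::GFP libraries, namely mcm-3, mcm-6, mcm-7, pcn-1 and rnr-2, against 7.09% of the 9268 genes with a read (657 genes). The 10 were chosen with read counts of this series known, so such contrasts are a description and do not show enrichment. Among the 2907 genes read in both MEG-3::GFP libraries the share was 22.6%, and 8 of the 10 were in that set. The gene mcm-6 sat on the threshold with exactly 60 reads in replicate 2, and rnr-1 and mcm-5 were the nearest below it in their lower library with 28 and 18. In replicate 2 alone 8 passed, against 13.5% of genes, and in replicate 1 alone 5, against 12.5%. In PGL-1::GFP none of the 10 passed in both libraries, against 0.194% of genes (18 genes). In PGL-1::GFP replicate 2 alone mcm-7, pcn-1 and rnr-2 passed, against 2.11% of genes. In GFP none passed in either library, against 0.475% of genes in either (44 genes) and 0.0432% in both (4 genes). A fixed number of reads is not the same level in each library. The threshold of 60 reads was 266 and 214 CPM for MEG-3::GFP, 2833 and 648 CPM for PGL-1::GFP, and 2262 and 4274 CPM for GFP. On counts scaled to the median library total, none of the 10 passed in both libraries of any group, against 0.928% of all genes with MEG-3::GFP, 0.151% with PGL-1::GFP and 0.205% with GFP alone.

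**Figure D3:**
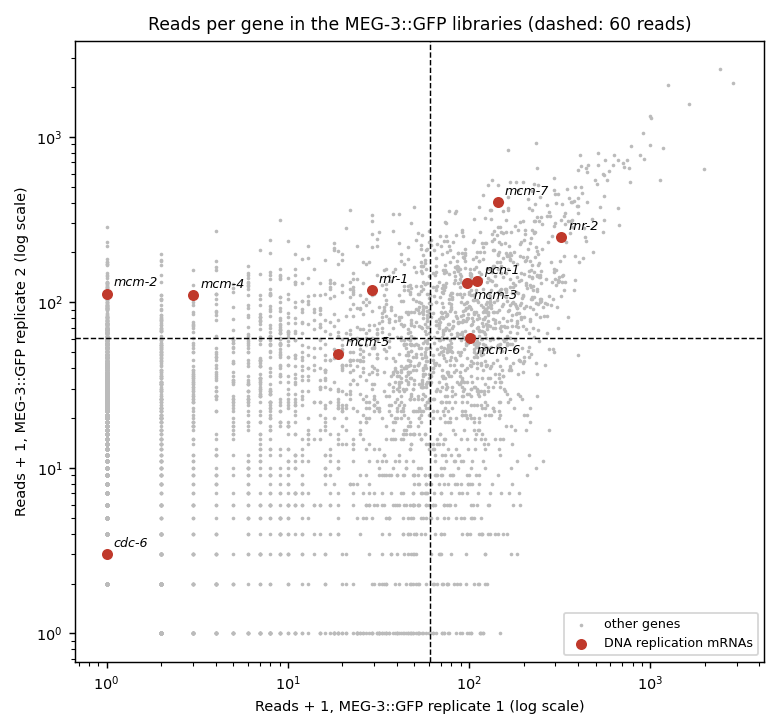
Reads + 1 per gene in MEG-3::GFP replicate 1 (horizontal, log scale) and replicate 2 (vertical, log scale), for all genes with a read in either (grey) and the 10 replication genes (red); dashed lines mark 60 reads. The genes mcm-3, mcm-6, mcm-7, pcn-1 and rnr-2 reach both lines, while mcm-2 and mcm-4, with 0 and 2 reads in replicate 1, lie at the left edge.

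A stricter class in the methods, P granule transcripts, takes bound transcripts whose rank in at least 1 MEG-3::GFP library meets that of the gene F35G2.1. The sources used here do not name the library that set this limit or the set that was ranked, so the class as built here may not be the study's own. Taken from MEG-3::GFP replicate 1, the rank of F35G2.1 was 370 with 1 row per gene and 388 over all rows of the table, in which some genes fill several rows. The same 410 genes (4.42%) met the rule either way. Of the 10 genes, mcm-7 met it with ranks 421 and 70, and rnr-2 with ranks 85 and 168. The nearest outside on this reading were pcn-1, with ranks 629 and 441, and mcm-3, with 751 and 463. Asking for the rank in both libraries left rnr-2 alone (1.88% of all genes). Leaving out MEG-3::GFP replicate 2 also left rnr-2 alone, a setting for which the share of all genes was not counted. Holding ranks counted only among the bound transcripts to the same limit gave 4 genes, with mcm-3 and pcn-1 added, and 489 of all genes (5.28%). Whether mcm-3 and pcn-1 belong to the class thus depends on which set was ranked.

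The first comparison was MEG-3::GFP over GFP. In CPM, mcm-5, pcn-1 and rnr-2 were above both GFP libraries in both MEG-3::GFP libraries, and 2 of these were among the 8 genes tested below, where 28.6% of all 2033 tested genes lay above. In the other direction mcm-2 lay below, against 10.0% of tested genes, with its closest libraries at 400 CPM with MEG-3::GFP and 415 CPM with GFP alone; with totals adjusted by TMM, an edgeR scaling, it no longer did. No gene of any kind passed edgeR's quasi-likelihood test at a Benjamini-Hochberg adjusted p under 0.05 (0% of 2033 genes; 65 at an unadjusted p under 0.05). DESeq2 called 129 of the 1722 genes to which it gave an adjusted p, 1 higher and 128 lower with MEG-3::GFP. None of the 10 was among them, but mcm-5 and cdc-6 had no DESeq2 adjusted p. Of the 10 genes, mcm-5 and cdc-6 fell to the filter on low counts in the fit of all 6 libraries, and none of the other 8 was at an unadjusted p under 0.05. The log2 fold changes were 1.60 ± 2.52 for pcn-1, 0.78 ± 2.15 for rnr-2, 0.62 ± 2.44 for mcm-3, 0.43 ± 2.67 for mcm-4, 0.22 ± 2.13 for mcm-7, -1.10 ± 2.45 for rnr-1, -1.72 ± 2.42 for mcm-6 and -1.80 ± 2.48 for mcm-2 (SE). Every one of them was smaller than its standard error, and each had an edgeR adjusted p of 1.00. Their median was 0.32, beside 0.39 over all 2033 genes. Single libraries set several of these signs. Without GFP replicate 2 the value for mcm-6 was 2.20, for mcm-3 -0.20 and for mcm-7 -0.55. Without GFP replicate 1 that for rnr-1 was 1.84. Without MEG-3::GFP replicate 2 that for mcm-4 was -3.57 and for mcm-7 -0.63. With each library left out in turn, rnr-2 was lowest at 0.72 when GFP replicate 2 was dropped and highest at 1.76 when GFP replicate 1 was. Dropping the same libraries gave pcn-1 0.81 and 9.03, and mcm-2 was at -8.49 without MEG-3::GFP replicate 2 and at -0.036 without MEG-3::GFP replicate 1. The outer values of 9.03 and -8.49 rest on a group left with no read and are no bounds. Where the filter was lifted, edgeR gave mcm-5 2.90 ± 4.06 (SE) with an adjusted p of 1.00, and for cdc-6, at or under 3 reads in all 4 libraries compared, no fold is given.

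**Figure D4:**
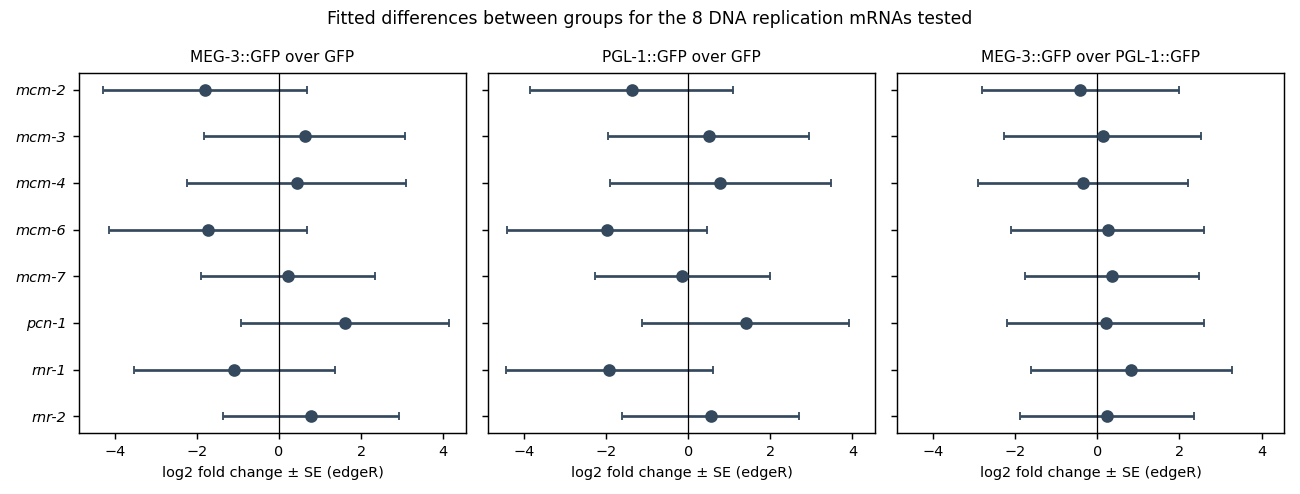
Fitted log2 fold changes (horizontal axis, points, with SE derived from the F statistic as bars) of the 8 genes tested by edgeR, in a panel for each comparison. Every bar crosses 0.

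The second comparison, PGL-1::GFP over GFP, shares the GFP libraries with the first. Only rnr-2 was above both GFP libraries in both PGL-1::GFP libraries, against 6.74% of tested genes, and none of the 10 was below, against 10.5%. The edgeR quasi-likelihood test again called no gene (0%; 16 at an unadjusted p under 0.05, none of the 10), and DESeq2 called 1, not of the 10. The log2 fold changes of the 8 tested genes ran from -1.98 ± 2.45 for mcm-6 and -1.92 ± 2.53 for rnr-1 to 1.40 ± 2.52 for pcn-1 (SE), with a median of 0.18, beside 0.00 over all genes. The edgeR adjusted p was 1.00 for each. The value of pcn-1 rested on PGL-1::GFP replicate 2 with its 61 reads: without that library, which leaves a PGL-1::GFP count of 0, the fit gave -7.13, a value that depends on the fit and is no bound. Without GFP replicate 2 that of mcm-6 was 1.82. For rnr-2 the value was 0.54 ± 2.15 and stayed above 0, between 0.30 and 0.98, whichever library was left out.

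The third comparison set the granule proteins against each other, MEG-3::GFP over PGL-1::GFP. None of the 10 was free of overlap in CPM in either direction, where 29.4% of tested genes were above and 5.26% below. No gene was called by the edgeR quasi-likelihood test (0%; 36 at an unadjusted p under 0.05, none of the 10) or by DESeq2. The log2 fold changes spanned the narrowest range of the 3 comparisons, between -0.42 ± 2.40 for mcm-2 and 0.82 ± 2.44 for rnr-1 (SE), each with an edgeR adjusted p of 1.00, with a median of 0.22 beside 0.50 over all genes. The standard errors of 2.12 to 2.56 on the log2 scale leave room for differences of several fold in either direction, so these values do not show that MEG-3::GFP and PGL-1::GFP recovered the mRNAs alike. PGL-1::GFP replicate 1, with 21180 reads, had reads on 4 of the 10 genes: rnr-2 (26), mcm-7 (16), mcm-3 (11) and rnr-1 (1). Without it, mcm-6 moved to -0.60 and pcn-1 to -0.64.

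The rest of the replication machinery gives the setting. From a list of 49 symbols, some of them names of the same gene, 44 further genes were found, from origin recognition to nucleotide supply; cdc-45, sld-3 and rnr-3 were not matched under those names. None of the 44 reached 60 reads in both PGL-1::GFP or both GFP libraries, against 0.194% and 0.0432% of the 9268 genes with a read. As a description, 4 of the 44 did in both MEG-3::GFP libraries, against 7.09%. These were ndk-1, for nucleoside diphosphate kinase (434 and 247 reads with MEG-3::GFP, 2 and 16 with PGL-1::GFP, 2 and 0 with GFP alone), orc-1 of the origin recognition complex (100 and 149, 1 and 5, and 12 and 0), ctf-4, which ties helicase to polymerase in yeast (65 and 152, 1 and 49, and 8 and 1), and cdc-7, whose yeast relative is the kinase that activates the helicase (80 and 69, 0 and 11, and 2 and 0). None of the 7 polymerase and primase genes, 7 genes of clamp loading and single-stranded DNA, or 6 genes of Okazaki fragment joining and topoisomerases reached it in both libraries, and the polymerase and primase genes had at most 33 and 42 reads with MEG-3::GFP. With so few genes in a role, these counts do not set the roles apart. The median over the 44 was 1 and 22.5 reads with MEG-3::GFP, 0 and 7 with PGL-1::GFP, and 1 and 0 with GFP alone. Over all 9268 genes with a read it was 0 and 5, 0 and 4, and 0 and 0. Over the 10 genes it was 62 and 115, 0 and 39, and 9.5 and 1.5. Because the 10 were chosen with read counts of this series known, this contrast is a description. Of the 44, 13 could be tested, and edgeR's quasi-likelihood test called none higher or lower in any of the 3 comparisons; their median log2 fold changes were 0.43, 0.51 and 0.25 for MEG-3::GFP over GFP, PGL-1::GFP over GFP and MEG-3::GFP over PGL-1::GFP.

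**Figure D5:**
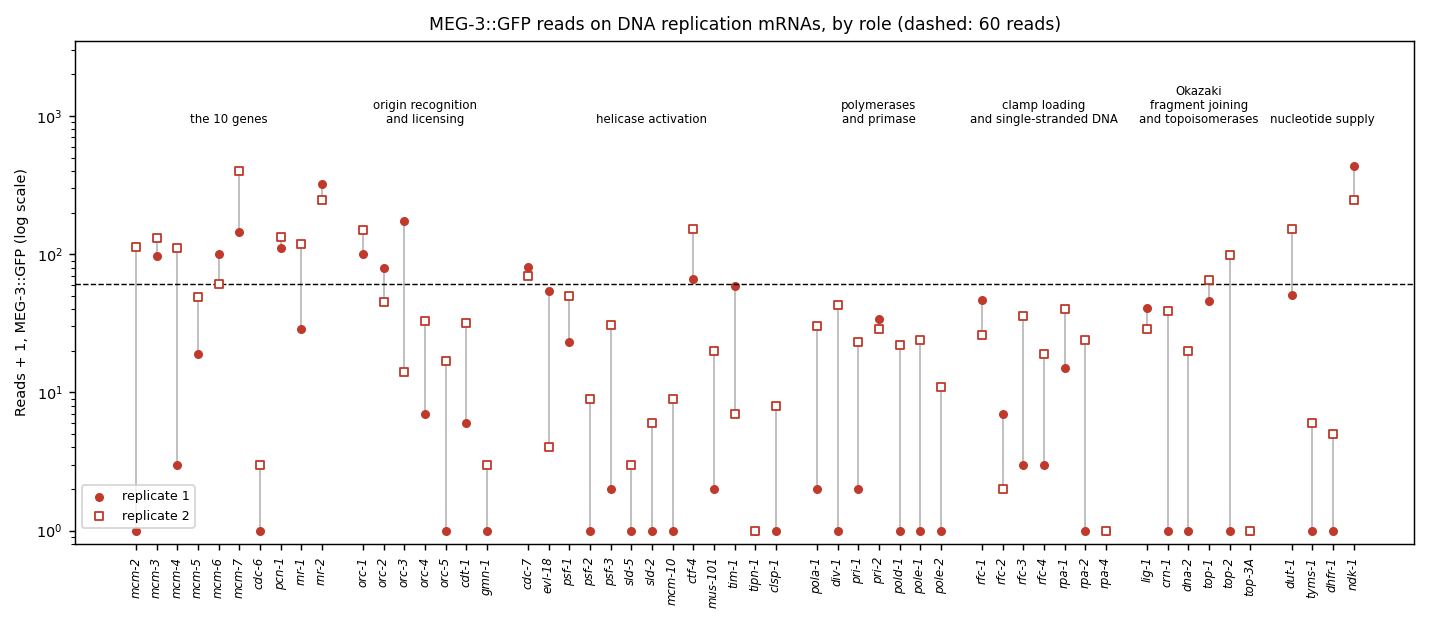
Reads + 1 (vertical axis, log scale) in MEG-3::GFP replicate 1 (filled circles) and replicate 2 (open squares) for the 10 genes and 44 other replication genes, grouped by role; the dashed line marks 60 reads. Besides 5 of the 10 genes, only orc-1, cdc-7, ctf-4 and ndk-1 have both symbols on or above the line.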

How the data were processed

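The data were iCLIP read counts per gene from 6 libraries, 2 for each tagged protein (MEG-3::GFP and PGL-1::GFP) and 2 for GFP. The authors deposited raw counts from HTSeq after alignment with HISAT2 2.1.0 (submitters' notes and methods); whether strand was used in counting is not given in the sources used here, so reads of overlapping genes cannot be separated. Rows were reduced to 1 per gene ID, and gene positions came from a RefSeq table of assembly WBcel235. Genes were tested with edgeR 4.0.16 (R 4.3.3): TMM scaling, filterByExpr, the quasi-likelihood test with all 6 libraries in 1 fit, Benjamini-Hochberg adjustment over all 2033 genes tested, and a threshold of 0.05. The scripts were tested on simulated data. Alternatives were DESeq2 1.42.0, library totals without TMM, no filter, only the groups compared and each library left out. The 10 genes and the list of further replication genes were chosen with earlier results of these data known. All 10 are named; further genes are named at 60 reads in both libraries of a tagged protein. Columns headed 1st and 2nd were matched to the sample of each protein whose title lacks or has the word replicate.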

Additional observations from a re-analysis of the deposited data

How the results depend on the processing

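The count of genes called in MEG-3::GFP over GFP was 0 in the edgeR fit of all libraries, 129 with DESeq2 and 2 when only those groups were fitted; in PGL-1::GFP over GFP DESeq2 called 1. With any library left out, edgeR called 0 in each comparison. None of the 10 genes was called under any setting in which it was tested. The low-count filter left mcm-5 and cdc-6 out of the edgeR fit of all libraries. DESeq2 gave neither an adjusted p for MEG-3::GFP over GFP. DESeq2 turned the sign of mcm-4 in MEG-3::GFP over GFP (-0.39), of mcm-7 in PGL-1::GFP over GFP (0.25, and 0.33 with only those groups), and of mcm-3 (-0.32), mcm-7 (-0.037) and rnr-2 (-0.20) for MEG-3::GFP over PGL-1::GFP; the cause was not tested. Leaving out each library in turn gave, for MEG-3::GFP over GFP, ranges of -0.20 to 8.93 for mcm-3, -3.57 to 2.65 for mcm-4, -1.93 to 2.20 for mcm-6, -0.63 to 4.71 for mcm-7 and -2.34 to 1.84 for rnr-1. For PGL-1::GFP over GFP they were -0.52 to 8.21 for mcm-3, -6.97 to 2.79 for mcm-4, -9.70 to 1.82 for mcm-6, -1.12 to 3.78 for mcm-7, -7.13 to 8.45 for pcn-1 and -3.85 to 0.51 for rnr-1. For MEG-3::GFP over PGL-1::GFP they were -7.60 to 7.64 for mcm-2, -4.91 to 7.63 for mcm-4, -0.60 to 8.20 for mcm-6, -0.46 to 1.11 for mcm-7, -0.64 to 8.79 for pcn-1 and -0.52 to 2.84 for rnr-1. A group left with 1 library is taken to vary like the others, and values beyond 5 come from groups left with no read and are no bounds.

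Genes at 60 reads in both MEG-3::GFP libraries numbered 5. The count was 0 on counts scaled to the median library total (0.928% of all genes), 8 with either library sufficing (18.9%) and 2 at 120 reads (2.81%). It was 5 to 8 with a library left out (12.5% to 13.5%), a setting chosen after seeing the data, as were all that leave out a library below. In PGL-1::GFP the count was 0, 3 with either library (3.29% of all genes), and 0 to 3 with a library left out (1.37% to 2.11%). Genes above in CPM ran from 3 to 5 (MEG-3::GFP over GFP), 1 to 5 (PGL-1::GFP over GFP) and 2 to 5 (MEG-3::GFP over PGL-1::GFP) with a library left out, against 36.6% to 59.9%, 9.44% to 35.3% and 36.4% to 62.3% of the 2033 tested genes. Genes below ran from 1 to 4, 0 to 4 and 0 to 4, against 14.3% to 34.0%, 13.1% to 40.9% and 8.95% to 29.7%; with TMM totals, 0 were below in MEG-3::GFP over GFP. The mean share of reads was 0.321% without mcm-7 and 0.309% without rnr-2 with MEG-3::GFP. In GFP it was 0.515% of protein-coding reads, 0.385% without mcm-2, 0.352% without mcm-6, 0.369% without mcm-7, 0.399% without rnr-1 and 0.393% without rnr-2. Of the P granule class (4.42% of all genes), 2 genes became 1 with the rank in both libraries (1.88%). They became 4 with ranks within the bound transcripts (5.28%), and 1 to 2 with a library left out. For the latter the share of all genes was not counted. Library totals without TMM moved the median log2 fold change of all genes to -0.19 in PGL-1::GFP over GFP and 0.67 for MEG-3::GFP over PGL-1::GFP. No paired analysis was possible because the labels give no replicate numbers that tie libraries across groups. Depth limits values from libraries such as GFP replicate 2 with 14040 reads, and spread between replicates limits the fitted values, with a common biological coefficient of variation of 1.38.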
